A study of Mus musculus with 2 samples.

Results

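Interferon-stimulated genes are the 33 listed symbols, taken from the gene column of the table that compares regenerating WT and PPARβ-null (KO) livers, whose rows were not marked as failed estimates. All 33 had a row, of 33224 gene symbols in the table, and they fell in 32 loci because Igtp and Irgm2 were given 1 joint locus. The rule uses gene names and the status column, and no FPKM value. RNA was taken from liver of male C57BL/6 mice 48 hr after partial hepatectomy (PH), the removal of part of the liver that sets off regrowth. One group was wild type (WT) and the other was null for PPARβ, a nuclear receptor that binds fatty acids and is encoded by Ppard. No restriction of the null allele to a cell type is given, and both groups had undergone PH. The sample labels give an age of 4 months for both, the series text 3 months and the growth protocol 3 to 5 months. Each genotype was 1 library, so no value carries an error between mice and no test between genotypes was possible. Whether a library came from 1 liver or several is not given in the sources used here. A liver without PH was not analysed here.

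Interferons are secreted proteins that signal through paired receptors and Jak kinases to STAT transcription factors. Type I and type III interferons activate a complex with Stat2 and Irf9 that binds the interferon-stimulated response element (ISRE), whereas interferon γ acts mainly through the gamma-activated sequence (GAS). The target genes encode RNA sensors, enzymes that damage or mark viral RNA, membrane proteins that stop viruses from entering or leaving, and large GTPases that attack the compartments of intracellular microbes. In liver, hepatocytes, Kupffer cells (the resident macrophages) and endothelial cells can all express them.

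Promoter windows were read from RefSeq (GRCm38.p6), a later build than that of the expression table. A window ran from 250 bases before to 50 bases after the annotated start, and 25 of the 33 genes had an entry. For the ISRE, the letters GAAA followed after any 2 bases by GAAA again were searched, and for the GAS the letters TTCNNNGAA, on both strands, and matches were allowed to overlap. The GAS letters read the same on both strands. The stretches shown are the 170 bases in front of the start, chosen to set genes of the same promoter letters but different KO/WT ratios beside each other. They are printed 5′ to 3′ in the direction of transcription, with capitals for every base in a match. Isg15 lies at chr4:156200819-156200988 on the minus strand, Ifit3 at chr19:34583359-34583528 on the plus strand, Oas1a at chr5:120907526-120907695 on the minus strand and Bst2 at chr8:71537473-71537642 on the minus strand. Irgm1 lies at chr11:48871421-48871590 on the minus strand, Igtp at chr11:58199386-58199555 and Irgm2 at chr11:58214807-58214976, both on the plus strand.
Isg15: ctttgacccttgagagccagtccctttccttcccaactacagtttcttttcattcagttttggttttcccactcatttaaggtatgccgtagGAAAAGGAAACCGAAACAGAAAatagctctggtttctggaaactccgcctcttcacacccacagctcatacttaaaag
Ifit3: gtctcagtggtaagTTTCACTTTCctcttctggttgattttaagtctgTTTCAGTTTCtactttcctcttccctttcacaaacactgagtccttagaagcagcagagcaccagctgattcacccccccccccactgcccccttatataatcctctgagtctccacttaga
Oas1a: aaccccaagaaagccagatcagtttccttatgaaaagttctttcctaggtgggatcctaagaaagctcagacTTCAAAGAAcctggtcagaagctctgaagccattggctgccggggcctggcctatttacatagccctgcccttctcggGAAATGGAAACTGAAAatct
Bst2: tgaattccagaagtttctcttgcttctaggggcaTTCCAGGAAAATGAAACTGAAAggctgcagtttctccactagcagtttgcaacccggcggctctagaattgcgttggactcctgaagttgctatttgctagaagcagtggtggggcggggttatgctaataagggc
Irgm1: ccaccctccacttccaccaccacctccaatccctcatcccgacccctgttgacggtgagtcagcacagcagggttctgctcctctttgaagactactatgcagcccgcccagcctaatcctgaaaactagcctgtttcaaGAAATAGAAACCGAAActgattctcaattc
Igtp: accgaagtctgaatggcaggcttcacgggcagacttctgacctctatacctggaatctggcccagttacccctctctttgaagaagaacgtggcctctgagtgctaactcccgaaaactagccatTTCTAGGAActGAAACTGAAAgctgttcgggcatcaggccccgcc
Irgm2: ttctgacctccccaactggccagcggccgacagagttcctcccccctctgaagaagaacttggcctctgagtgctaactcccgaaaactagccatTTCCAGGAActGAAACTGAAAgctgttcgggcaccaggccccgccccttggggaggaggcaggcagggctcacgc

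The ISRE letters were in the windows of 17 of the 25 genes (68%), whereas 3.99% of all 27025 genes with a window had them. The GAS letters were found in 8 of 25 (32%), beside 9.55% of all genes, and both were found in 6 of 25 (24%), beside 0.540%. Of the 26 ISRE matches, 21 began within 160 bases before the start. In Isg15 there were 3 overlapping ISRE matches that began 78, 72 and 66 bases before the start. In Ifit3 a pair of separate matches on the opposite strand began at 156 and 122 bases before it. Bst2 had overlapping ISRE matches at 130 and 124 bases, and the first of these shared 3 bases with a GAS match. Igtp and Irgm2, neighbouring genes of the same family, had the same arrangement, a GAS match followed after a gap of 2 bases by an ISRE match, at 45 and 34 bases before the start of Igtp and at 75 and 64 bases before that of Irgm2. The 4 ISRE matches after the start were in Ifitm3, at 2 and 19 bases, in Ddx58, at 2 bases, and in Ifih1, at 32 bases. Irf7, Irf9, Oasl1, Oasl2, Ifi44 and Xaf1 had no match of either motif in these windows, which says only that the letters are not there. Such a match is a description of sequence and does not show that a factor was bound.

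**Figure D1:**
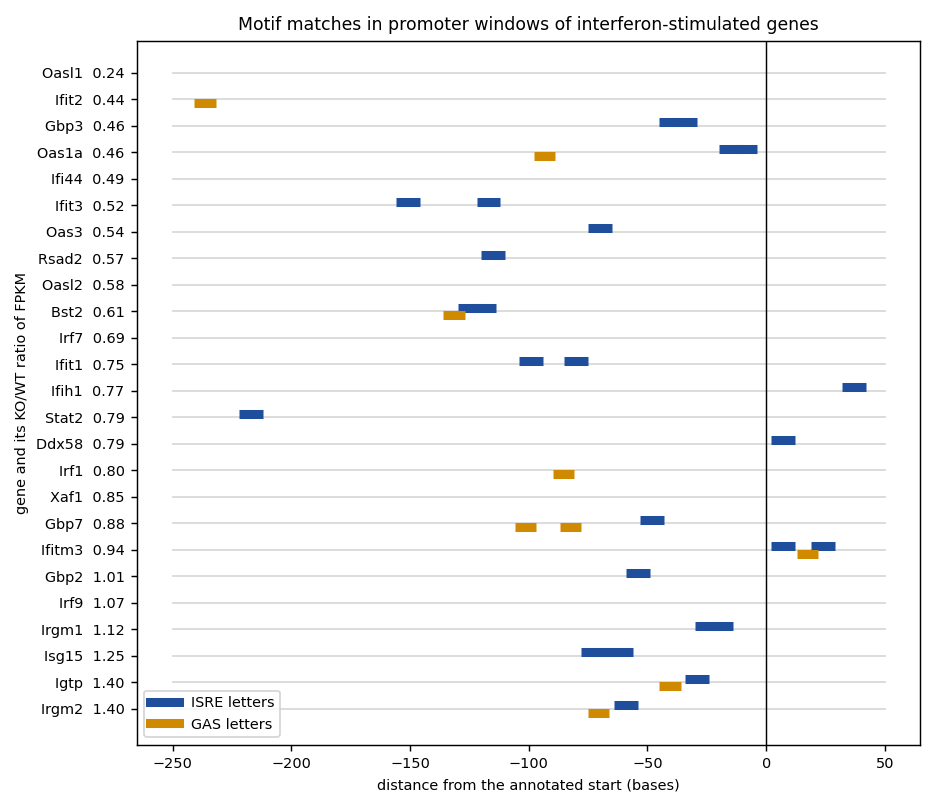
Positions of ISRE and GAS letters in the promoter windows of the 25 interferon-stimulated genes with a RefSeq entry, with the distance from the annotated start in bases on the horizontal axis and the genes ordered from the lowest KO/WT ratio of FPKM (top) to the highest. Blue bars are ISRE matches, orange bars are GAS matches, and grey lines are the 300-base windows. For the 4 genes with 2 windows, matches of both are overlaid. ISRE matches lie from Gbp3 (KO/WT 0.460) near the top to Irgm2 (1.40) at the bottom.

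The expression values are FPKM (mapped fragments scaled to exon length and to the size of the library), 1 per locus and library. Depth was estimated from 2827 single-exon genes, of which 83 in WT and 74 in KO fell in a fixed window of 0.012 to 0.028 FPKM, scaled to 1 kb. By their medians, a single fragment on a transcript of 1 kb corresponded to 0.0188 FPKM in WT and to 0.0180 FPKM in KO, a depth ratio of 1.05. The window bounds both values, and the fragment counts and intervals below rest on them. The KO/WT ratio of each listed gene is given with an exact 95% interval for the number of fragments behind it, which covers counting error only and not the difference between mice. Ppard, the targeted gene (chr17:28369699-28438414 on NCBI37/mm9), had 2.67 FPKM in WT and 2.42 FPKM in KO, a ratio of 0.906 (0.793 to 1.04). This value sums the whole locus and does not check a deletion of part of the gene. Lower values in KO were common in these libraries. Of the 15727 symbols with a mean of at least 0.1 FPKM, 74.8% were lower in KO, and the median of log2((KO + 0.1)/(WT + 0.1)) was -0.25.

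The interferon-stimulated genes spanned a wide range of levels. Mean FPKM ran from 0.0539 for Oas3 to 356 for Ifitm3, with a median of 2.23. The mean was at least 10 FPKM in 8 genes, between 1 and 10 in 15 and below 1 in 10. In WT the order at the top was Ifitm3 (367 FPKM), Bst2 (104) and Iigp1 (49.3), and in KO it was Ifitm3 (344), Iigp1 (81.3) and Bst2 (63.3), so that Bst2 and Iigp1 changed places. The classical antiviral effectors of the IFIT, OAS and Mx families were at or below 3.56 FPKM in both libraries.

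Of the 33 genes, 24 were lower and 9 higher in KO. Among the 31 that passed a mean of 0.1 FPKM, 22 were lower, near the 74.8% of all genes that were. Of these 31, 12 were more than 1.5-fold lower in KO (38.7%), beside 26.0% of all genes, and 2 were more than 1.5-fold higher (6.45%), beside 6.05%. More than 2-fold lower were 6 of 31, beside 13.4% of all genes, and 0 were more than 2-fold higher, beside 2.79%. The median log2 ratio was -0.33. Among the 23 genes with a mean of at least 1 FPKM, 6 were more than 1.5-fold lower (26.1%), beside 19.9% of all genes at that level, and 2 were higher, beside 4.20%. The median of these 23 was -0.22, beside -0.24. Genes higher in KO made up 14.3% of the listed genes' calls as deposited, 30.8% with equal upper quartiles of the libraries and 33.3% after centring. Over all genes, 952 were called higher and 4092 lower as deposited, 1406 and 2915 with equal upper quartiles, and 1532 and 2743 after centring. The share of higher calls thus rose with scaling over all genes too. Centring here means scaling KO up by 1.18 so that the median log2 ratio of genes with a mean of at least 1 FPKM, which was -0.24, becomes 0. With equal upper quartiles, 9 of 31 were lower, beside 18.5% of all genes, and 4 were higher, beside 8.94%. After centring, 8 of 31 were lower, all among the original 12, beside 17.4% of all genes, and 4 were higher, beside 9.74%. Bst2, Oasl2, Parp14 and Rsad2 left the lower calls, and Igtp and Irgm2 joined the higher ones. Igtp and Irgm2 share 1 locus and 1 value, so 1 measurement counts as 2 among the 4 higher on both scales. Of the 28 genes in a locus with a single symbol that passed 0.1 FPKM, 2 were higher after centring. The KO/WT ratios of 4 genes that were below 1 as deposited came above 1 on this scale, Ifitm3 (1.11), Gbp7 (1.04), Xaf1 (1.01) and Mx2 (1.01). In bulk liver RNA, fewer cells of a type and less RNA per cell cannot be told apart.

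**Figure D2:**
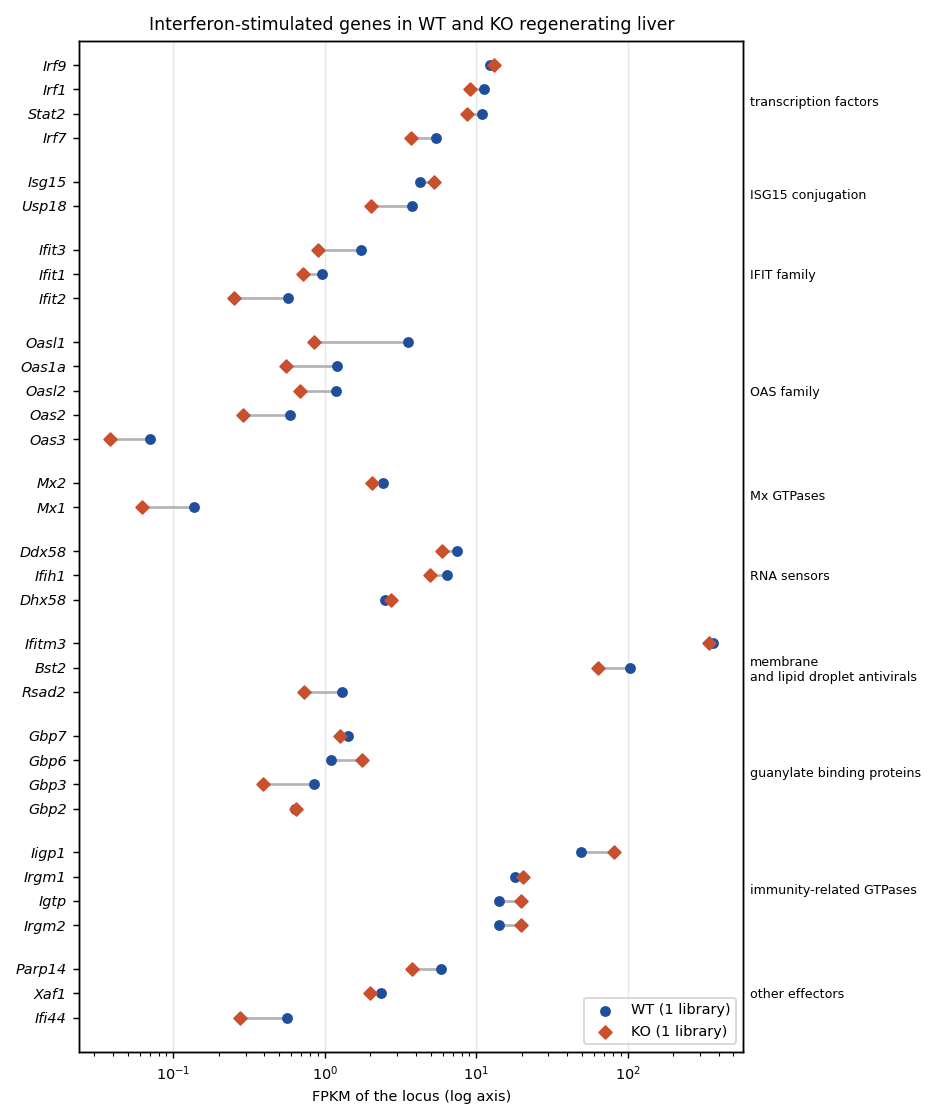
FPKM of each of the 33 interferon-stimulated genes in the WT library (blue circles) and the KO library (red diamonds), on a log axis, grouped by role and ordered by WT level within a role. Each point is 1 library. All 5 OAS genes and all 3 IFIT genes lie lower in KO, as did 74.8% of all genes with a mean of at least 0.1 FPKM. All 4 immunity-related GTPases lie higher, of which Igtp and Irgm2 share 1 value.

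The list holds 4 transcription factors of the pathway, and none was more than 1.5-fold different. Stat2, a part of the ISRE-binding complex, had 10.9 FPKM in WT and 8.66 FPKM in KO, a ratio of 0.792 (0.747 to 0.839). Irf1, which interferon γ induces, had 11.3 and 9.04 FPKM, a ratio of 0.798 (0.735 to 0.866). These lay near the ratio of the median gene. Irf7, the factor that amplifies type I interferon production, was lower, at 5.42 FPKM in WT and 3.73 FPKM in KO, a ratio of 0.689 (0.610 to 0.777). Its locus of 37882 bases also covers Phrf1. Irf9, the DNA-binding partner of Stat2, had 12.3 FPKM in WT and 13.2 FPKM in KO, in a locus joint with Rnf31. This locus of 22793 bases also covers part or all of Psme2, so the Irf9 value cannot be read as Irf9 alone. The ratio given for Irf9, 1.07 (1.02 to 1.13), was the only one of the 4 above 1.

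The genes of ISG15 conjugation differed in direction. Isg15, a ubiquitin-like protein that is attached to other proteins, had 4.23 FPKM in WT and 5.30 FPKM in KO, a ratio of 1.25 (1.02 to 1.54). Usp18, the protease that removes Isg15 and also restrains signalling at the type I receptor, had 3.74 FPKM in WT and 2.01 FPKM in KO (chr6:121195924-121220934). Its ratio was 0.536 (0.448 to 0.640). The intervals of the pair did not overlap, but they leave out the difference between mice, and the difference between the pair was not tested.

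The IFIT proteins bind foreign RNA and block its translation. Ifit3 had 1.75 FPKM in WT and 0.905 FPKM in KO, a ratio of 0.519 (0.395 to 0.676). Ifit2 had 0.570 and 0.253 FPKM, a ratio of 0.444 (0.316 to 0.619). Ifit1 had 0.958 and 0.719 FPKM, and its ratio of 0.750 (0.577 to 0.974) stayed within 1.5-fold. Thus all 3 were lower in KO, 2 of them by more than 1.5-fold, with a median log2 ratio of -0.88. Over all genes that passed 0.1 FPKM, 74.8% were lower, 26.0% by more than 1.5-fold. Their neighbour Ifit3b, which is not in the list, had 0.546 FPKM in WT and 0.352 FPKM in KO. All 4 genes of this stretch (chr19:34625184-34724499) were lower, with ratios from 0.444 to 0.750.

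The OAS family had the lowest median log2 ratio of the groups described here, -0.92. Oligoadenylate synthetases sense double-stranded RNA and make a messenger that activates RNase L, which cuts RNA. The summed level of the 5 listed family genes was 6.60 FPKM in WT and 2.41 FPKM in KO, of which Oasl1 alone gave 3.56 and 0.849 FPKM. Oasl1, a family member that restrains the translation of Irf7, had 3.56 FPKM in WT and 0.849 FPKM in KO, about 413 and 103 fragments. Its ratio of 0.239 (0.190 to 0.297), a 4.19-fold higher level in WT, was the lowest of the 33 genes. The locus starts at 115367327 on chr5, before the annotated gene at 115373249, and covers part or all of a second annotated gene, Gm13822. Oas1a had 1.20 FPKM in WT and 0.552 FPKM in KO, a ratio of 0.461 (0.332 to 0.635), and Oas2 had 0.594 and 0.288 FPKM, a ratio of 0.484 (0.352 to 0.660). Oasl2 had 1.18 and 0.687 FPKM, a ratio of 0.580 (0.458 to 0.732). These 4 were all of the family that passed 0.1 FPKM, and each was more than 1.5-fold lower, as were 26.0% of all genes. Oas3, at 0.0699 FPKM in WT and 0.0380 FPKM in KO, rested on about 17.6 and 9.98 fragments, and the interval of its ratio (0.223 to 1.25) included 1.

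The counting intervals of Oasl1 and Oasl2, which lie beside each other (chr5:115346943-115387924), did not overlap, and the difference between these genes was not tested. In the separate Oas cluster (chr5:121180342-121357536), the 3 listed genes and their neighbours Oas1c, Oas1b and Oas1g were all lower in KO, with ratios from 0.461 to 0.708. Of all genes that passed 0.1 FPKM, 74.8% were lower. The neighbours named here and for the other families were chosen after their values were seen. Close paralogs of the OAS, IFIT, GBP and IRG families can share reads, and how these were divided among copies could not be checked, so the value of a single copy is less certain than that of its family.

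Mx proteins are dynamin-like GTPases that trap viral particles. Mx2 had 2.41 FPKM in WT and 2.05 FPKM in KO, a ratio of 0.851 (0.721 to 1.0). Mx1, which is defective in C57BL/6 mice, was at 0.138 FPKM in WT and 0.0618 FPKM in KO, about 24.9 and 11.7 fragments, with a ratio of 0.448 (0.203 to 0.932). It fell just below the mean of 0.1 FPKM and was not counted.

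None of the 3 cytosolic RNA sensors was more than 1.5-fold different. Ddx58, which encodes RIG-I, had 7.47 FPKM in WT and 5.92 FPKM in KO, a ratio of 0.793 (0.735 to 0.854). Ifih1, a sensor of long double-stranded RNA, had 6.39 and 4.94 FPKM, a ratio of 0.772 (0.721 to 0.827). Dhx58, a related helicase that modulates both sensors, had 2.49 and 2.72 FPKM, a ratio of 1.09 (0.942 to 1.27). The Dhx58 value belongs to a locus of 129368 bases that covers 6 annotated genes, so it cannot be read as Dhx58 alone.

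The group of membrane and lipid droplet proteins holds the 2 genes with the highest WT levels. Ifitm3, which blocks virus entry from endosomes, had 367 FPKM in WT and 344 FPKM in KO, and its ratio was 0.939 (0.917 to 0.962). Bst2, also called tetherin, which holds budding virus at the cell surface, had 104 FPKM in WT and 63.3 FPKM in KO (chr8:74058163-74061336). Its ratio of 0.608 (0.579 to 0.638) was the lowest among genes with a mean of at least 10 FPKM. Rsad2, or viperin, an enzyme of lipid droplets and the endoplasmic reticulum that makes an antiviral nucleotide, had 1.29 and 0.731 FPKM, a ratio of 0.566 (0.465 to 0.686).

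The guanylate binding proteins (GBP) and immunity-related GTPases (IRG) act at the vacuoles of intracellular microbes and are known for induction by interferon γ. All 4 IRG genes were higher in KO, with a summed level of 81.6 FPKM in WT and 121 FPKM in KO and a median log2 ratio of 0.48. The joint locus of Igtp and Irgm2 counts as 2 genes in this count and median, and as 1 in the sums. Iigp1 had 49.3 FPKM in WT and 81.3 FPKM in KO, about 8189 and 14138 fragments, and its ratio of 1.65 (1.61 to 1.70) was the highest of the 33 genes. The joint locus of Igtp and Irgm2 (chr11:58013058-58036282) had 14.2 and 19.9 FPKM, a ratio of 1.40 (1.31 to 1.49 with the transcript length of Igtp). Irgm1, which regulates the other IRG proteins, had 18.1 and 20.2 FPKM, a ratio of 1.12 (1.07 to 1.17). Of the other IRG loci on the chromosome of Irgm1, Ifi47 had 5.69 FPKM in WT and 5.93 FPKM in KO, a ratio of 1.04 (0.926 to 1.18). Tgtp1, at 0.772 and 0.403 FPKM, and Tgtp2, at 0.639 and 0.288 FPKM, were lower in KO. Ifi47, Tgtp1 and Tgtp2 carry the same locus of 230732 bases, which covers 12 annotated genes. Ifi47 was named jointly with Olfr56 and Tgtp1 with Gm12185, so these values may not be those of single genes.

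The GBP genes split. Gbp6 had 1.09 FPKM in WT and 1.77 FPKM in KO (chr5:105699723-105722718), a ratio of 1.61 (1.38 to 1.89). Gbp3 had 0.854 and 0.393 FPKM (chr3:142223016-142236173), a ratio of 0.460 (0.331 to 0.633). Gbp2 (0.635 and 0.642 FPKM, ratio 1.01, 0.744 to 1.38) and Gbp7 (1.43 and 1.26 FPKM, ratio 0.882, 0.767 to 1.02) lay between them. On chromosome 5 the cluster around Gbp6 changed direction along its length, with ratios of 0.737 (0.465 to 1.16) for Gbp8, 0.686 (0.531 to 0.885) for Gbp9 and 0.770 (0.603 to 0.982) for Gbp4. They were then 1.49 (1.22 to 1.82) for Gbp10, 1.61 for Gbp6 and 1.48 (0.891 to 2.48) for Gbp11, and the counting intervals of Gbp8 and Gbp11 included 1. On chromosome 3 Gbp3 was the only gene of the cluster below a ratio of 0.882, and Gbp5 had a ratio of 1.10 (0.643 to 1.90). Of the 8 GBP and IRG genes, 1 was more than 1.5-fold lower and 2 were higher, with a median log2 ratio of 0.32. The shared value of Igtp and Irgm2 counts as 2 in this median. Of the other 23 that passed 0.1 FPKM, 11 were lower and 0 higher, with a median of -0.53, where all genes had 26.0% lower and 6.05% higher. After centring, the 8 had 1 lower and 4 higher, of which Igtp and Irgm2 share 1 value. The 23 had 7 lower and 0 higher, beside 17.4% lower and 9.74% higher over all genes. This division was made after the values were seen, and the difference was not tested.

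**Figure D3:**
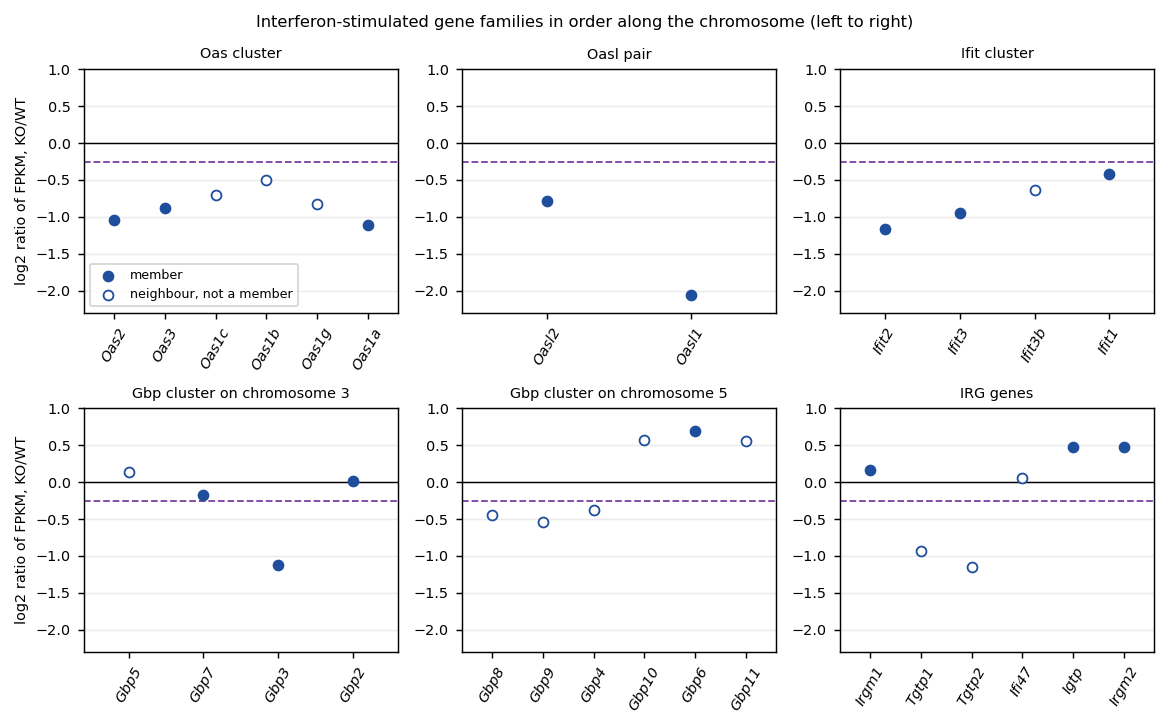
Log2 ratio of FPKM (KO/WT, vertical axis) for families that lie together, in order along the chromosome. Filled points are listed interferon-stimulated genes, open points are neighbours outside the list, each from 1 library per genotype, and the dashed line is the median of all genes with 0.1 FPKM added. The Oas, Oasl and Ifit genes all lie below 0, whereas the Gbp cluster on chromosome 5 runs from 0.737 at Gbp8 to 1.48 at Gbp11 as a ratio. Tgtp1, Tgtp2 and Ifi47 start at the same base, and Igtp and Irgm2 share 1 value.

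Of the remaining effectors, Parp14, an ADP-ribosyltransferase, had 5.90 FPKM in WT and 3.76 FPKM in KO, a ratio of 0.638 (0.598 to 0.681). Ifi44 had 0.564 and 0.276 FPKM, a ratio of 0.490 (0.355 to 0.670). Xaf1, a factor that favours apoptosis, had 2.35 and 2.00 FPKM, a ratio of 0.852 (0.725 to 1.0). All 3 were lower in KO, and the first 2 passed 1.5-fold, as did 26.0% of all genes. Over the whole list, the counting interval of the ratio as deposited lay below 1 in 20 genes, above 1 in 7 and included 1 in 6. The same share was not computed over all genes, so whether the 20 are particular to this list cannot be told. The 74.8% of all genes with a mean of at least 0.1 FPKM that were lower in KO is a different measure, as it counts any lower value.

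**Figure D4:**
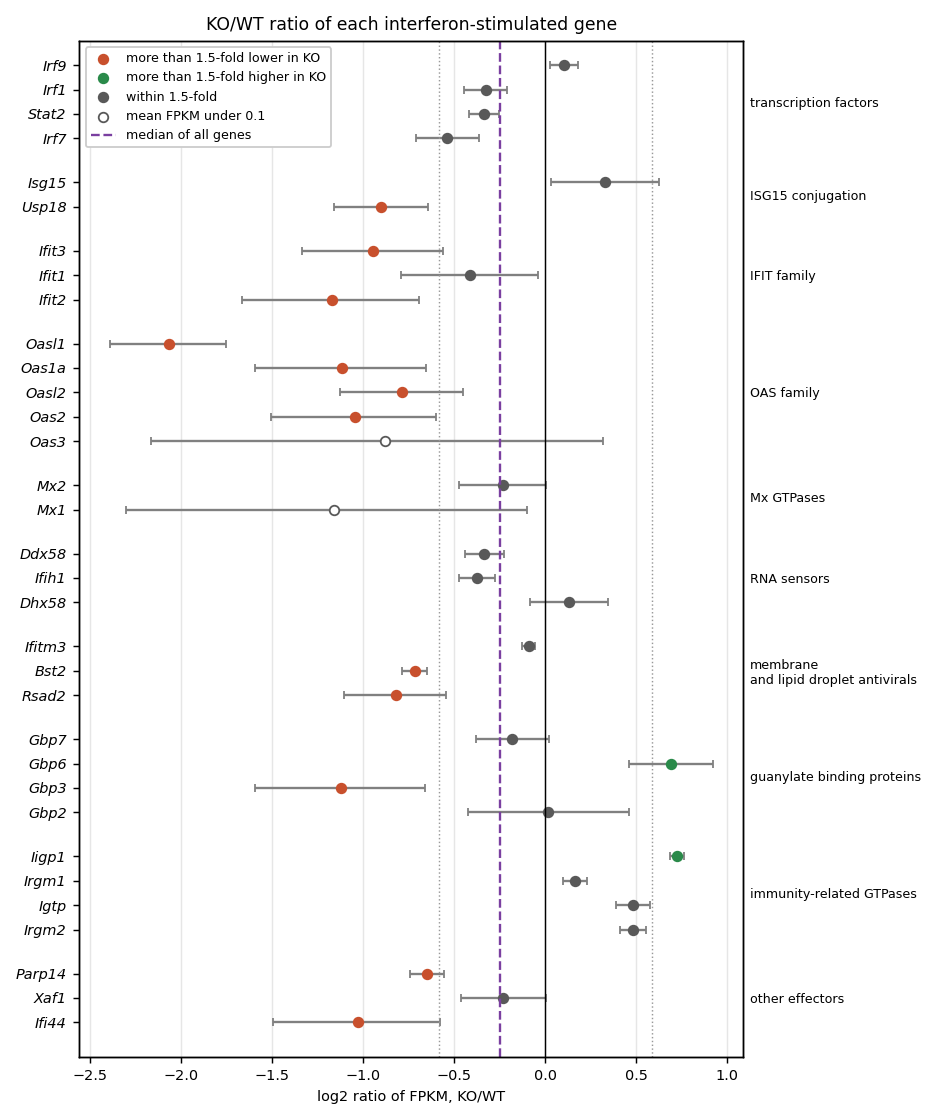
Log2 ratio of FPKM, KO over WT, for each of the 33 genes, with bars for the 95% counting interval. Red points are more than 1.5-fold lower in KO (12 genes), green points more than 1.5-fold higher (2 genes), grey points within 1.5-fold, and open points had a mean under 0.1 FPKM. Dotted lines mark 1.5-fold and the dashed line the median of all genes (-0.25). The bars do not show the spread between mice.

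The ratios can be set beside the promoter letters. Of the 16 genes with ISRE letters that passed 0.1 FPKM, 5 were more than 1.5-fold lower and 11 within 1.5-fold, with a median log2 ratio of -0.33. Of the 8 without them, 4 were lower and 4 within 1.5-fold, with a median of -0.62. With GAS letters, 3 of 8 were lower, and without them 6 of 16. Over all genes that passed 0.1 FPKM, 26.0% were more than 1.5-fold lower, with a median log2 ratio of -0.25. The differences between these groups were not tested. Gbp6 and Iigp1, the pair more than 1.5-fold higher, had no entry.

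Upstream of these genes, the ligands were hardly seen. Of 13 interferon genes with a row, 10 were listed at 0 in both libraries. Ifng was listed at 0 in WT and at 0.0164 FPKM in KO, about 1 fragment. The highest, Ifnk, had 0.0922 FPKM in WT and 0.141 FPKM in KO, about 3.95 and 6.31 fragments in a locus that covers 3 annotated genes. Ifnz had 0.00376 and 0.000918 FPKM. Interferon RNA was thus at or near the limit of detection at this depth in both libraries.

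Receptors and kinases were detected at higher levels and lay within 1.5-fold, 8 of 8 that passed 0.1 FPKM, with a median log2 ratio of -0.13. Over all genes, 26.0% were more than 1.5-fold lower and 6.05% higher. Ifnar2, a chain of the type I receptor, was given a joint locus with Il10rb of 36.1 FPKM in WT and 31.7 FPKM in KO. Jak1 had 27.3 and 24.6 FPKM. The transcription factors Stat3, Irf3 and Stat6, which are not in the list, were within 1.5-fold as well. Stat3, which transmits interleukin signals in regenerating liver, had 55.3 FPKM in WT and 50.9 FPKM in KO, Irf3 had 20.2 and 20.4 FPKM, and Stat6 had 16 and 17.4 FPKM. Irf8 was not analysed here.

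Of 8 inhibitors of the pathway, 0 were lower and 2 higher by more than 1.5-fold, beside 26.0% and 6.05% of all genes. By any amount, 4 were lower and 4 higher, with a median log2 ratio of 0.00. Among the lower ones, Socs1 (0.327 and 0.220 FPKM) had a ratio of 0.672 (0.322 to 1.36) and was named after its value was seen. Socs3, a feedback inhibitor of Jak kinases, had 9.62 FPKM in WT and 18.6 FPKM in KO, a ratio of 1.93 (1.81 to 2.06). Cish, a related STAT-induced inhibitor, had 2.85 and 5.61 FPKM, a ratio of 1.97 (1.80 to 2.16), and was named after its value was seen. The phosphatases Ptpn1 (8.59 and 8.01 FPKM) and Ptpn2 (7.78 and 7.40 FPKM) were nearly level. In nucleic acid sensing, the median of 12 genes was -0.06. Of these 12, 0 were higher and 2 lower by more than 1.5-fold, beside 6.05% and 26.0% of all genes. These were the toll-like receptor Tlr7 (0.184 and 0.0739 FPKM) and the DNA sensor Mb21d1 (0.224 and 0.0883 FPKM), named after their values were seen. Mavs, the adaptor of RIG-I, had 30.4 FPKM in WT and 27.2 FPKM in KO. Its downstream kinases Tbk1 (9.16 and 8.77 FPKM) and Ikbke (12.1 and 17.8 FPKM) also stayed within 1.5-fold.

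A further 57 interferon-stimulated genes outside the list had rows. Of the 56 that passed 0.1 FPKM, 15 were more than 1.5-fold lower (26.8%) and 2 higher (3.57%), with a median log2 ratio of -0.23, close to all genes. The most abundant was Lgals9, a galactoside-binding lectin, at 238 FPKM in WT and 254 FPKM in KO. Psmb10, an immunoproteasome subunit, shared a locus with Lcat, Ctrl and Slc12a4 (181 and 300 FPKM), so its own level is not known. Ly6e, a surface protein, had 154 FPKM in WT and 54.4 FPKM in KO, a ratio of 0.353 (0.344 to 0.363). Slfn9, of the Schlafen family, had 8.62 FPKM in WT and 0.212 FPKM in KO, about 2080 and 53.6 fragments, a 40.6-fold higher level in WT and a KO/WT ratio of 0.0246 (0.0184 to 0.0323). Cxcl10, a chemokine that attracts T cells, had 1.94 and 0.623 FPKM, in a locus that covers 4 annotated genes. Ifi30, a lysosomal thiol reductase of antigen-presenting cells, had 14.3 and 7.12 FPKM, and Tor3a had 1.37 and 3.26 FPKM.

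**Figure D5:**
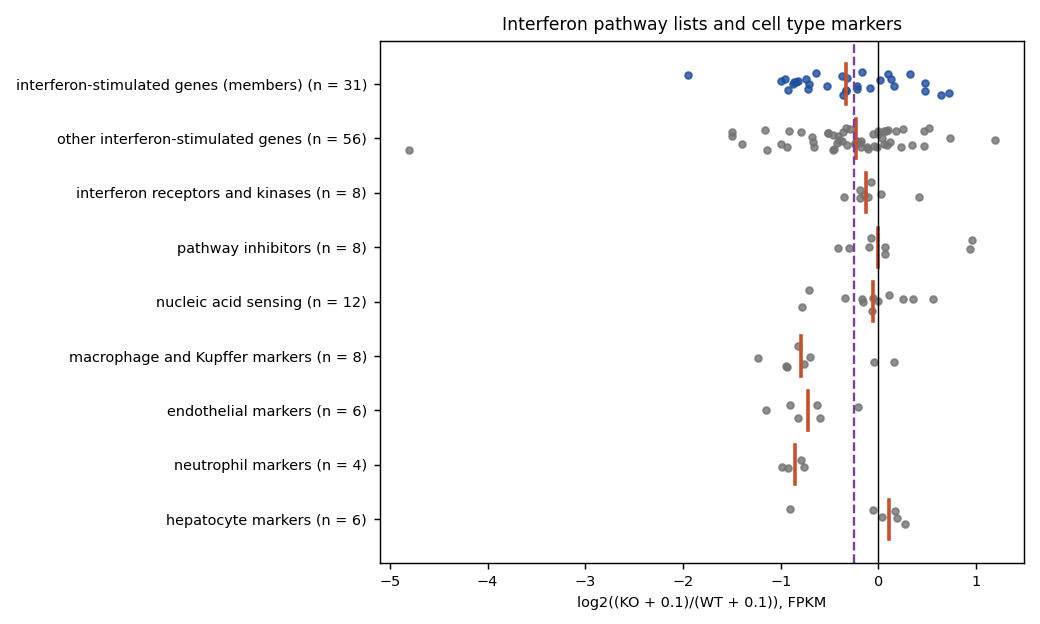
Log2((KO + 0.1)/(WT + 0.1)) of FPKM for the genes of each list that passed a mean of 0.1 FPKM. Each point is a gene, red bars are list medians, and the dashed line is the median of all genes. The listed interferon-stimulated genes (blue, n = 31) have a median of -0.33, the other interferon-stimulated genes -0.23, and the macrophage and Kupffer markers -0.79.

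Markers of several cell types other than hepatocytes were also lower in KO. Of 8 macrophage and Kupffer markers, 6 were more than 1.5-fold lower in KO, with a summed level of 60.8 FPKM in WT and 38.5 FPKM in KO and a median log2 ratio of -0.79. Cd5l (18.4 and 10.8 FPKM), Clec4f (17.3 and 10.6 FPKM) and Csf1r (3.98 and 1.64 FPKM) were among them, whereas Marco had 6.58 and 7.37 FPKM. Of 6 endothelial markers, 5 were lower, with sums of 48.5 and 34.6 FPKM and a median of -0.72, among them Stab2 (9.66 and 6.23 FPKM), Pecam1 (5.21 and 3.40 FPKM) and Lyve1 (2.72 and 1.17 FPKM). The most abundant, Clec4g, had 21.8 and 18.9 FPKM and stayed within 1.5-fold. Of 6 neutrophil markers, 4 passed 0.1 FPKM and all 4 were lower, with sums of 13.9 and 7.31 FPKM. They included S100a8 (6.68 and 3.33 FPKM), S100a9 (6.11 and 3.48 FPKM) and Csf3r (0.764 and 0.356 FPKM), while Ly6g and Mpo were at 0 in both libraries. Over all genes, 26.0% were more than 1.5-fold lower as deposited and 17.4% after centring. After centring, 4 of 8 macrophage and Kupffer, 3 of 6 endothelial and 3 of 4 neutrophil markers were lower by that fold. Lymphocyte markers were scarce, with sums of 0.967 and 0.492 FPKM over 10 T and NK cell genes and of 0.421 and 0.207 FPKM over 4 B cell genes. Of the plasmacytoid dendritic cell markers, Siglech, the defining one, had 0.124 FPKM in WT and 0.131 FPKM in KO, whereas Ly6d had 11.1 and 28.4 FPKM. The other 3 markers of this list did not pass 0.1 FPKM, so Ly6d stood apart from its list. Which cells the Ly6d RNA came from was not tested. Hepatocyte markers defined the tissue, led by Serpina1a, Apoa1 and Ttr, with sums of 12160 FPKM in WT and 12762 FPKM in KO, and 1 of 6, Tat (1115 and 595 FPKM, named after its value was seen), was more than 1.5-fold lower. The part of these cell types in the values of the interferon-stimulated genes was not tested.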

How the data were processed

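Hepatic RNA of 1 WT and 1 KO library was prepared with the TruSeq kit and sequenced on a HiSeq 2000 with 100 bp reads, which the labels call paired end and the study's methods single end. The authors aligned reads to NCBI37 (mm9) with TopHat 2.0.0, assembled transcripts with Cufflinks 1.3.0 and ran Cuffdiff, and deposited FPKM, normalised to exon length and mapped fragments, for 38016 loci. Whether strand or quartile normalisation was used is not given in the sources used here. Columns of the authors' own comparison (fold change, statistic, p and q) were not used.

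The 21 loci marked HIDATA (failed estimates at 0) were left out. Rows of a symbol were summed, and each symbol of a joint locus (850 loci) received its value, while 2302 loci had no symbol. Locus coordinates are on NCBI37 (mm9), counted from 1, and were compared with GENCODE vM1, in which 32451 of the symbols were found. The 33 members, the other gene lists and the cell type markers were chosen with earlier results of these data known. Genes of the other lists were named when among the 3 highest in mean FPKM of their list, or past 2-fold with a mean of at least 1 FPKM, and exceptions are marked. Counts used a mean of at least 0.1 FPKM and a 1.5-fold difference of FPKM as deposited. Medians are of log2 ratios after adding 0.1 FPKM to each value, so that differences of low genes come out too small. Fragments were estimated from depth and the longest annotated transcript, and 95% intervals of ratios are exact (Clopper-Pearson), for counting error only. A count of 3 fragments on 1 kb, the limit that a count of 0 allows, is 0.0563 FPKM in WT and 0.0539 FPKM in KO. Computation was in Python 3.11.15 with pandas 2.3.3, numpy 2.4.6 and scipy 1.17.1, plots were drawn with matplotlib 3.10.9, and the steps were tested on simulated data. With 1 library per genotype no test was run. Some results are not reported here. Alternatives covered the fold, the filter, the pseudocount, the scaling and the handling of rows and joint loci.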

Additional observations from a re-analysis of the deposited data

How the results depend on the processing

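The 12 genes lower and 2 higher by more than 1.5-fold became 6 and 0 at 2-fold. With a mean of at least 1 FPKM, 6 of 23 were lower and 2 higher. Equal upper quartiles gave 9 lower and 4 higher, and centring gave 8 lower and 4 higher. On both scales the 4 include Igtp and Irgm2, which share 1 value. Without a filter on low FPKM, 14 of 33 were lower and 2 higher. Taking the highest row or leaving out joint loci left both counts at 12 and 2. The median log2 ratio of -0.33 ranged from -0.37 without joint loci to -0.09 after centring when 1 choice was changed at a time. Centring together with a mean of at least 1 FPKM, a combination chosen after seeing the data, reversed its sign, to 0.00726, and the cause was not tested. Scaling moved the ratios of 18 genes (centring) and 13 genes (upper quartiles) beyond their counting intervals, and none of the 33 changed from a call in one direction to a call in the other. No leave-one-out value could be made, as leaving out a library leaves no comparison. No paired analysis was possible because each genotype was 1 library. Depth limits the genes below 1 FPKM, of which Oas3 rested on about 9.98 fragments in KO.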
